A study of Mus musculus with 4 samples.

Results

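Genes of the plasminogen activation system and of the matricellular proteins tenascin-C and thrombospondin-1 were followed in mouse primary intestinal epithelial cells on 4 Affymetrix expression arrays. The members were Plau, Plat, Plaur, Serpine2, Serpinb2, Tnc and Thbs1, and every probe set that the platform annotation assigns to 1 of these symbols alone was taken. This gave 10 probe sets for 6 of the 7 genes, among 34945 probe sets and 18193 genes with 1 symbol in all. Plau, Plat, Tnc and Thbs1 had 2 probe sets each, and Plaur and Serpinb2 had 1. Serpine2 was not analysed here, and 1 further probe set, annotated to Thbs1 together with a second gene, was left out.

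The 4 groups were cells given interleukin-17A (IL-17A, 50 ng/ml) plus fibroblast growth factor 2 (FGF2, 5 ng/ml), cells given FGF2 alone, cells given IL-17A alone, each for 6 h, and untreated cells, with 1 array per group. All of them came from isolated crypts plated on fibronectin in medium with serum and insulin. The labels give neither the strain, age and number of mice nor a genotype. The series title names the question, which is whether FGF2 and IL-17A act together in the healing of the intestinal epithelium.

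Urokinase (Plau) and tissue-type plasminogen activator (Plat) are secreted serine proteases that cut plasminogen into plasmin, which dissolves fibrin and cleaves matrix proteins. Plaur encodes the urokinase receptor, which holds urokinase at the cell surface, and the serpins encoded by Serpine2 and Serpinb2 inhibit plasminogen activators. Tenascin-C (Tnc) and thrombospondin-1 (Thbs1) are matricellular proteins, laid down in injured tissue, that act on cell adhesion and migration. Thrombospondin-1 also activates latent TGF-beta.

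The deposited value of a probe set is a log2 signal made with MAS5, and signals are given below on the linear scale, each array having been scaled as a whole to the same mean. Signals under a floor of 89.8, the median of all signals, were raised to it before ratios were taken, and 12258 genes with a signal over the floor on at least 1 array are called measured. Each gene is represented by its probe set with the highest mean, and all 6 members were measured, over the floor on all 4 arrays. With 1 array per group no difference was tested, and an additive model of the 2 factors would have the joint term below as its sole residual. As a measure of error, the joint term (log2 IL-17A plus FGF2 − IL-17A − FGF2 + untreated) was treated as noise over all measured genes. The SD of log2 ratios derived from it was 0.29 for dim genes, whose mean was under 8 in log2 (Plau), 0.20 between 8 and 10 (Serpinb2) and 0.09 over 12 (Plat, Plaur, Tnc and Thbs1). This yardstick includes any true joint response, and flooring makes it smaller for dim genes.

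The label of the cells was set against marker genes. The epithelial genes Krt8 (signals of 24796 to 28156 over the 4 arrays), Epcam and Cdh1 were over the floor on all arrays, and so were Vim, a gene of mesenchymal cells, at 18254 to 23063, the endothelial gene Emcn at 2063 to 3504 and Cd14, which macrophages express, at 862 to 3081. Of the T and B cell list only 2 of 6 genes were measured. The cell type that the members' RNA came from cannot be read from these arrays, and fewer cells of a type cannot be told apart from less RNA per cell. All 9 fibroblast markers were measured, and their signals summed to 69042 with both factors, 66108 with FGF2, 81147 with IL-17A and 77596 in untreated cells. The 9 endothelial markers summed to 9627, 9164, 6419 and 6713 on these arrays, and the 7 measured of 8 macrophage markers to 6482, 5995, 5071 and 4891. Without Cd14 the other 6 macrophage markers summed to 3402, 3355, 3753 and 4029, and the median log2 ratio of the 7 against untreated cells was −0.07 with both factors, −0.22 with FGF2 and 0.08 with IL-17A. The 6 smooth muscle markers summed to 23176, 24919, 35126 and 34352, and the 7 measured of 10 enterocyte markers to 9274, 19082, 12303 and 24761. The 8 epithelial markers summed to between 132645 and 140679. Of 7 neutrophil markers 3 were measured, and they summed to 4109, 1563, 1106 and 669. Most of this was S100a8, at 3740, 1348, 717 and 419, while Mpo, Elane and S100a9 were not over the floor on any array. What part these cells had in the results below was not tested.

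Promoter sequences, the 250 bases before the start of transcription in the RefSeq annotation of GRCm38.p6, are shown for Plaur, Serpinb2 and Tnc, the 3 of the 6 measured members with an entry in the promoter table. Serpinb2 and Plaur had their highest signals with both factors, and all 3 genes were above untreated cells in every treated group, as Plau was. For Tnc with IL-17A the step over untreated cells was only 0.81 SDs of the yardstick. For Plaur the step from IL-17A to both factors was only 0.48 SDs. Both strands were searched for 5 motifs, and capitals mark the matches. The 3 sequences lie at chr7:24462233-24462482 on the + strand (Plaur), chr1:107511173-107511422 on the + strand (Serpinb2) and chr4:64047016-64047265 on the − strand (Tnc), and for Serpinb2 and Tnc the first of 2 listed starts was used.
Plaur: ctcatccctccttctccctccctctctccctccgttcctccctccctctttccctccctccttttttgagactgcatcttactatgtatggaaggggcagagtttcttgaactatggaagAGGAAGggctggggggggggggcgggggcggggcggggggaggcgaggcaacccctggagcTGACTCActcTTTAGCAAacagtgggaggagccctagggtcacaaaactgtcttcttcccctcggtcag
Serpinb2: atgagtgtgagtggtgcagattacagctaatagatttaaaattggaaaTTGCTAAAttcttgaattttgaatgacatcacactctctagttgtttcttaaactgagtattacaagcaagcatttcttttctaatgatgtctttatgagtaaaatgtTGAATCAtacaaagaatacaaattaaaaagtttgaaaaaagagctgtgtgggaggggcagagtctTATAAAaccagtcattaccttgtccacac
Tnc: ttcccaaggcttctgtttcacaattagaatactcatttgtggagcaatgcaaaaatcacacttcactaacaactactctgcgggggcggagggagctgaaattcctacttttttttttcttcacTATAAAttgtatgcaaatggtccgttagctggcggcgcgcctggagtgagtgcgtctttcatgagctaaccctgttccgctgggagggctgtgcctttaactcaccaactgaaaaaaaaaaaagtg
The AP-1 motif, bound by Fos and Jun proteins, was searched as TGANTCA. It lies 69 to 63 bases before the start of Plaur and 94 to 88 bases before that of Serpinb2, and 6.87% of 27025 promoters of the same length hold it. The C/EBP motif was searched as TTNNGCAA. It lies 59 to 52 bases before the start of Plaur and, on the opposite strand, 202 to 195 bases before that of Serpinb2. A further match, outside the sequence shown, lies 19 to 12 bases before the second listed start of Serpinb2. Of all promoters 9.55% hold this motif. The ETS motif was searched as AGGAAG. It lies 130 to 125 bases before the start of Plaur and 43 to 38 bases before the second listed start of Tnc, and 29.2% of promoters hold it. The TATA motif was searched as TATAAA. It lies 29 to 24 bases before the start of Serpinb2 and 126 to 121 bases before that of Tnc, and 13% of promoters hold it. An NF-kB motif of 10 letters, held by 4.6% of promoters, had no match in these 3 windows or at the second listed starts of Serpinb2 and Tnc. The AP-1 letters read the same on both strands, and no 2 of the matches overlap. A match describes the letters in this window and not a bound site.

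The urokinase gene was the member furthest above untreated cells with FGF2. The brightest probe set of Plau had signals of 229 with IL-17A plus FGF2, 306 with FGF2, 215 with IL-17A and 111 in untreated cells. All treated arrays were above the untreated one, and FGF2 alone was the highest. Plau was thus 2.75-fold higher with FGF2 than in untreated cells, at rank 27 of 12258 measured genes. It was 2.06-fold higher with both factors (rank 101) and 1.94-fold higher with IL-17A (rank 48). The step between the IL-17A and untreated arrays, a log2 difference of 0.95, was past 2 SDs of the yardstick. The gaps among the 3 treated arrays, 0.42 and 0.09, were not.

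The second probe set of Plau was dim, with signals of 112 with both factors, 122 with FGF2, 79.9 with IL-17A and 75.3 in untreated cells, the last 2 under the floor. Its order of arrays was the same as in the brighter probe set. Without a floor it was 1.49-fold higher with both factors, 1.62-fold with FGF2 and 1.06-fold with IL-17A than in untreated cells. The value for FGF2 thus had the same direction in both probe sets at unequal size, while that for IL-17A was close to 1-fold in the dimmer one.

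Plat showed another order, in which the arrays with IL-17A were the high ones. Its brightest probe set had signals of 14016 with both factors, 9270.1 with FGF2, 15049.8 with IL-17A and 10163 in untreated cells. Both arrays with IL-17A stood above both arrays without it, and the gap between these pairs, a log2 difference of 0.46 from IL-17A plus FGF2 to untreated, was past 2 SDs of the yardstick. Plat was 1.48-fold higher with IL-17A than in untreated cells (rank 196 of 12258). It was 1.51-fold higher with both factors than with FGF2 alone (rank 213). Plat was 1.10-fold lower with FGF2 than in untreated cells, within 2 SDs.

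The second probe set of Plat had signals of 225 with both factors, 159 with FGF2, 282 with IL-17A and 232 in untreated cells. It was 1.21-fold higher with IL-17A than in untreated cells and 1.41-fold higher with both factors than with FGF2, the same direction as in the brighter one. For both factors against untreated cells the probe sets differed in direction, 1.38-fold higher in the brighter and 1.03-fold lower in the dimmer. With FGF2 alone the dimmer one was 1.46-fold lower than in untreated cells.

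The urokinase receptor gene was higher on every treated array. Plaur had signals of 5752 with IL-17A plus FGF2, 5002 with FGF2, 5573 with IL-17A and 4235 in untreated cells. It was 1.36-fold higher with both factors, 1.18-fold higher with FGF2 and 1.32-fold higher with IL-17A than in untreated cells. The lowest of these steps, from FGF2 to untreated, was past 2 SDs of the yardstick, whereas the neighbouring treated arrays differed by 0.05 and 0.16 in log2, which was not. The mean log2 signal of Plaur was 12.3, close to the limit of 12. For genes between 10 and 12, 2 SDs are 1.20-fold, which the 1.18-fold step from FGF2 to untreated does not reach.

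Among the inhibitors, Serpinb2, which encodes plasminogen activator inhibitor type 2, had an ordered series of signals. They were 456 with IL-17A plus FGF2, 348 with FGF2, 273 with IL-17A and 188 in untreated cells. Both factors together gave the highest of the 4 signals, each factor alone an intermediate one and untreated cells the lowest. Serpinb2 was 2.42-fold higher with both factors (rank 69 of 12258), 1.85-fold higher with FGF2 (rank 83) and 1.45-fold higher with IL-17A (rank 229) than in untreated cells. Set against one factor alone, it was 1.67-fold higher with both factors than with IL-17A and 1.31-fold higher than with FGF2. Of the neighbouring steps in this order, the lowest, from IL-17A to untreated (0.54 in log2), was past 2 SDs of the yardstick, while 0.39 from both factors to FGF2 and 0.35 from FGF2 to IL-17A were not.

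Tenascin-C followed FGF2. The brightest probe set of Tnc had signals of 8532 with IL-17A plus FGF2, 8677 with FGF2, 6770.4 with IL-17A and 6421 in untreated cells. Both arrays with FGF2 lay above both arrays without it, and the step between these pairs (0.33 in log2) was past 2 SDs of the yardstick while the steps within them (0.02 and 0.08) were not. Tnc was 1.35-fold higher with FGF2 than in untreated cells and 1.26-fold higher with both factors than with IL-17A. It was 1.05-fold higher with IL-17A than in untreated cells and 1.02-fold lower with both factors than with FGF2. The second probe set, with signals of 797, 819, 667 and 584 on the arrays of both factors, FGF2, IL-17A and untreated cells, had the same order. It was 1.40-fold higher with FGF2 than in untreated cells, and the log2 ratio for both factors against IL-17A was 0.26.

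By its brightest probe set, Thbs1 was the member that differed least among the arrays. This probe set had signals of 4235 with IL-17A plus FGF2, 5269 with FGF2, 4608 with IL-17A and 4797 in untreated cells. The array with both factors was the lowest and that with FGF2 the highest, and no step between neighbours was past 2 SDs of the yardstick. The distance from end to end, 1.24-fold lower with both factors than with FGF2, was 3.34 SDs. The second probe set had signals of 793 with both factors, 1157 with FGF2, 1148 with IL-17A and 957 in untreated cells. It was 1.46-fold lower with both factors than with FGF2 and 1.45-fold lower than with IL-17A. For IL-17A against untreated cells the probe sets differed in direction, with log2 ratios of −0.06 in the brighter and 0.26 in the dimmer.

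**Figure D1:**
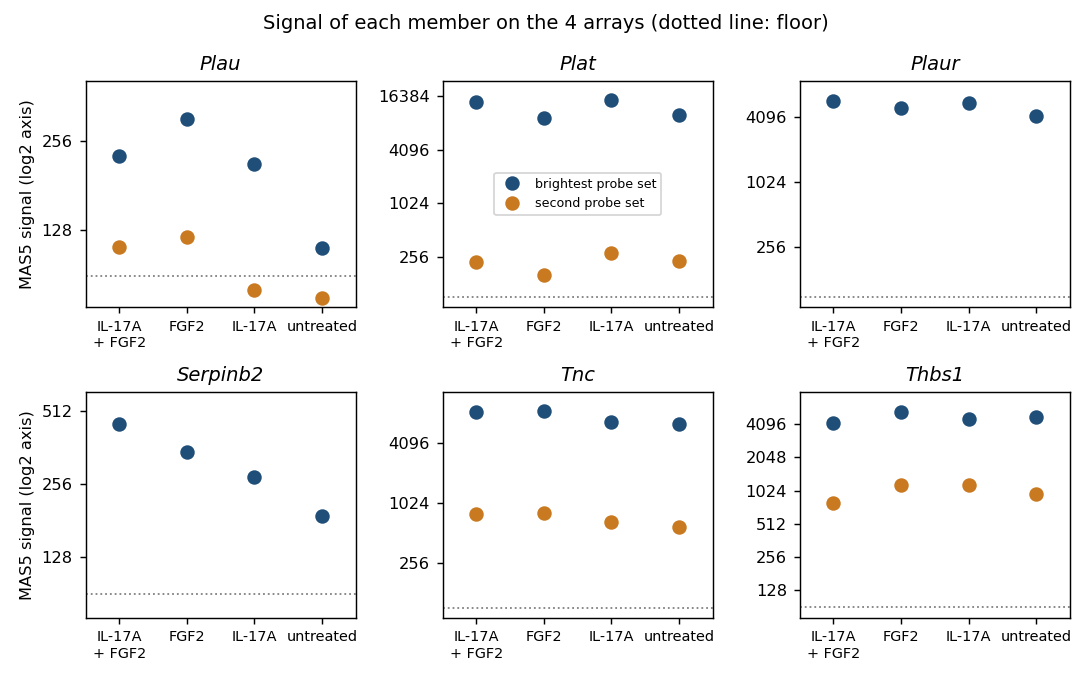
Signals of the 6 members on the 4 arrays, 1 panel per gene, on a log2 axis of MAS5 signal; blue points are the brightest probe set, orange points the second one where there is one, and the dotted line is the floor of 89.8. Serpinb2 is highest with both factors (456) and lowest in untreated cells (188). By the brightest probe sets, Plat is high on the 2 arrays with IL-17A and Tnc on the 2 arrays with FGF2. The second probe set of Plat has 225 with both factors and 232 in untreated cells.

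As a group, 2 of 6 members were at least 2-fold higher with both factors than in untreated cells (Plau and Serpinb2), where 0.906% of measured genes were, and 0 were at least 2-fold lower, against 1.73%. With FGF2 alone 1 of 6 was at least 2-fold higher (Plau), against 0.473% of measured genes, and 0 lower, against 0.963%. With IL-17A alone 0 were higher, against 0.375%, and 0 lower, against 0.228%. For both factors against IL-17A 0 members passed 2-fold either way, where 0.547% of measured genes were higher and 0.857% lower. For both factors against FGF2 the count was 0 as well, where 0.367% were higher and 0.269% lower. These genes were chosen with results of the same arrays known, so the counts describe them and are not evidence about the group.

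The median log2 ratio of the 6 members was 0.45 with both factors, 0.34 with FGF2 and 0.47 with IL-17A against untreated cells, beside medians of 0.00, −0.0094 and −0.0120 over all measured genes. Members ran from −0.18 (Thbs1) to 1.27 (Serpinb2) with both factors, from −0.13 (Plat) to 1.46 (Plau) with FGF2 and from −0.06 (Thbs1) to 0.95 (Plau) with IL-17A. These 3 comparisons share the untreated array. In each of them 5 of the 6 members were above untreated cells, where 48.2% of measured genes were above with both factors, 46.1% with FGF2 and 45.1% with IL-17A. Of the members 4 were above for both factors against IL-17A, where 49.6% of measured genes were, and 3 for both factors against FGF2, where 49% were. Against untreated cells, the member below was Thbs1 with both factors and with IL-17A, and Plat with FGF2.

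**Figure D2:**
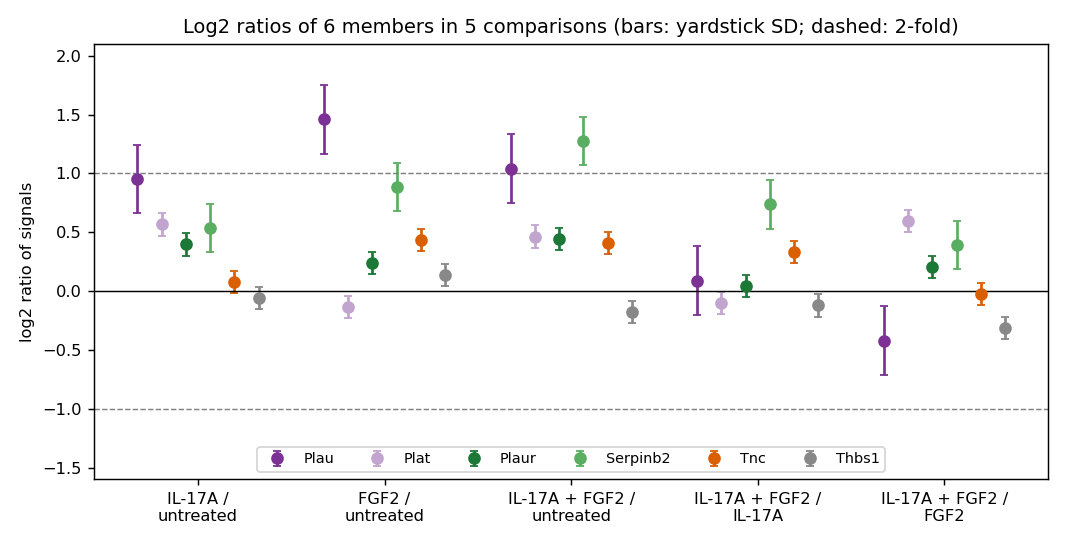
Log2 ratios of the 6 members, by their brightest probe set, in the 5 comparisons; bars are the yardstick SD of a log2 ratio for genes of like signal (0.29 for Plau, 0.20 for Serpinb2, 0.09 for the others), not a replicate error, and dashed lines mark 2-fold. Plau with FGF2 (1.46) and Serpinb2 with both factors (1.27) are the highest points, and Plau is at −0.42 for both factors against FGF2.

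Each factor was added both to untreated cells and to cells given the other factor, so its difference has 2 separate readings that use different arrays. For FGF2, 4 of 6 members were higher in both readings (Plau, Plaur, Serpinb2 and Tnc) and 1 was lower in both (Plat), where 31.6% of measured genes were higher in both and 32.9% lower in both. Serpinb2 had log2 ratios of 0.74 for FGF2 in the presence of IL-17A and 0.89 in its absence, Tnc 0.33 and 0.43, and Plaur 0.05 and 0.24. Averaged over the readings, Serpinb2 was 1.75-fold, Plau 1.71-fold, Tnc 1.30-fold and Plaur 1.10-fold higher with FGF2. For Plau the 2 readings were far apart, at 0.09 with IL-17A present, which was 0.30 SDs of the yardstick, and 1.46 with it absent. Those of Plat were −0.10 with IL-17A present and −0.13 with it absent, only 1.09 and 1.41 SDs.

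For IL-17A, 3 of 6 members were higher in both readings (Plat, Plaur and Serpinb2) and 1 lower in both (Thbs1), where 25.8% of measured genes were higher in both and 28.4% lower in both. Plat had log2 ratios of 0.60 in the presence of FGF2 and 0.57 in its absence, Serpinb2 0.39 and 0.54, and Plaur 0.20 and 0.40. Averaged over the readings, the log2 ratio for IL-17A was 0.58 for Plat, 0.46 for Serpinb2 and 0.30 for Plaur. Plau had a log2 ratio of −0.42 with FGF2 present and 0.95 with it absent. Thbs1 had −0.32 and −0.06, of which the second was only 0.62 SDs of the yardstick. Plaur and Serpinb2 were the members with ratios over 1 in both readings of both factors. For Plaur the FGF2 reading with IL-17A present, 0.05 in log2, was only 0.48 SDs of the yardstick. It was 0 after quantile normalization.

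**Figure D3:**
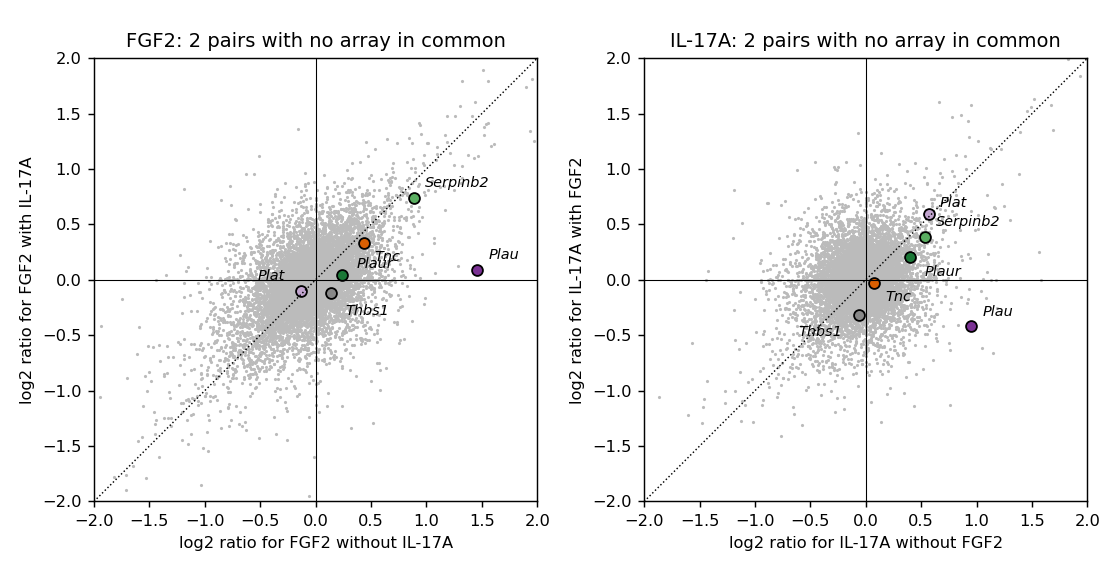
Log2 ratio of each measured gene (grey) and of the 6 members (coloured) for FGF2 (left) and IL-17A (right), with the other factor absent on the horizontal axis and present on the vertical axis; the dotted line marks equal ratios, and 25 and 15 genes lie outside the axes of the left and right panels. Plat for IL-17A and Serpinb2 and Tnc for FGF2 lie near the line, and Plau lies far below it in both panels.

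The joint term asks whether both factors together gave more or less than the sum of the single log2 ratios. It was −1.37 for Plau, since the single ratios of 1.46 and 0.95 add up to 5.33-fold where both factors gave 2.06-fold. In absolute size this was larger than in 99.5% of the 3407 dim genes (log2 mean under 8). In the second probe set of Plau, under the floor on 2 arrays, the term without a floor was −0.20. The other members had terms of 0.03 (Plat), −0.19 (Plaur), −0.15 (Serpinb2), −0.10 (Tnc) and −0.26 (Thbs1), beside an SD of 0.29 for genes with the signal of Serpinb2 and 0.13 for the 4 brighter ones. That of Thbs1 exceeded 95.3% of the 1103 genes over 12 in size, and its second probe set gave −0.81. The median over all measured genes was 0.02.

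Plau and Serpinb2 were at least 2-fold different from untreated cells, and the genes nearest to each were sought among 387 named genes with such a difference on at least 1 treated array, by the Euclidean distance over the 3 log2 ratios against untreated. Serpinb2 lay nearest to Ptgs2, the inducible prostaglandin synthase gene (distance 0.09), to Timp1, an inhibitor of metalloproteinases (0.09), and to the platelet chemokine gene Ppbp (0.11). Ptgs2 had signals of 17092 with both factors, 13725 with FGF2, 10514 with IL-17A and 7450.2 in untreated cells. Its order of arrays was that of Serpinb2, which follows from the choice by distance and is not a separate result. Plau had no neighbour as close: Layn (distance 0.39), Pcdh9 (0.45) and Zkscan17 (0.46) were nearest. Each likeness rests on 4 arrays, 1 of them shared by all 3 ratios.

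Genes around the members were described by 5 lists with 120 distinct genes, of which 108 had a probe set and 76 were measured. With both factors 4 of the 76 were at least 2-fold higher than in untreated cells and 4 lower, where 0.906% and 1.73% of measured genes were. With FGF2 2 were higher and 3 lower, beside 0.473% and 0.963%. With IL-17A the counts were 0 and 0, beside 0.375% and 0.228%. For both factors against IL-17A they were 3 and 2, beside 0.547% and 0.857%, and against FGF2 0 and 0, beside 0.367% and 0.269%. The lists were also chosen with earlier results of these arrays known. These counts and those by list below therefore describe the genes and are not evidence about the groups.

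The rest of the plasminogen system, which takes in plasmin receptors, clearance receptors and further protease inhibitors, had few differences. Its 19 measured genes had median log2 ratios of −0.11 with both factors, −0.11 with FGF2 and −0.02 with IL-17A. Serping1, the C1 inhibitor gene, was the one at least 2-fold different. It had signals of 3265 with both factors, 2389 with FGF2, 6266 with IL-17A and 5074 in untreated cells, and was 2.12-fold lower with FGF2 than in untreated cells. Plg itself, the plasminogen gene, was not over the floor on any array.

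Of 12 measured genes of coagulation and fibrin, 4 were at least 2-fold higher with both factors than in untreated cells and 0 lower, where 0.906% and 1.73% of all measured genes were, and the list's median log2 ratio was 0.21. Thbd, encoding the thrombin-binding anticoagulant thrombomodulin, had signals of 4803 with both factors, 4479 with FGF2, 1584 with IL-17A and 1650.1 in untreated cells. It was 2.91-fold higher with both factors and 2.71-fold higher with FGF2 than in untreated cells. Tfpi2, a protease inhibitor that acts on plasmin and tissue factor complexes, was 2.85-fold higher with both factors and 2.28-fold with FGF2. Procr, the endothelial protein C receptor gene, was 2.22-fold higher with both factors, and F2rl3, a thrombin receptor gene, at least 2.29-fold. The probe set of Procr can detect related transcripts. Thbd and Procr are also expressed by endothelial cells, whose markers had a median log2 ratio of 0.49 with both factors, 0.38 with FGF2 and −0.08 with IL-17A against untreated cells.

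The other clade B serpins were mostly below untreated cells with both factors. Of 8 measured, 1 was above (Serpinb6a, a log2 ratio of 0.15), Serpinb1b was under the floor on both arrays, and the median log2 ratio was −0.30. This median was −0.64 with the floor at the 75th percentile of signals and −0.55 with the probe sets of a gene averaged. Serpinb6b had signals of 704 with both factors, 994 with FGF2, 1053 with IL-17A and 1598 in untreated cells, and Serpinb9b 3729.5, 5985, 5419.9 and 7857. With both factors these were 2.27-fold and 2.11-fold lower than in untreated cells.

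The other tenascins, thrombospondins and matricellular genes had a median log2 ratio of 0.00 against untreated cells with both factors, with FGF2 and with IL-17A (19 measured), a value that dim genes at the floor can give. With both factors it was −0.26 with the floor added to the signal and −0.23 after quantile normalization. Efemp1, a fibulin gene, was the one at least 2-fold different, at least 2.39-fold lower with both factors and 2.18-fold lower with FGF2. Receptors of the members' proteins had medians of 0.03, −0.06 and 0.05 (18 measured). Itga8, an integrin chain that pairs with beta1 and binds tenascin-C, had signals of 150.1 with both factors, 219 with FGF2, 509 with IL-17A and 719 in untreated cells. It was 4.79-fold lower with both factors and 3.28-fold lower with FGF2 than in untreated cells. Itga8 and Efemp1 are genes of mesenchymal cells, and fibroblast markers had a median log2 ratio of −0.64 with both factors, −0.58 with FGF2 and 0.06 with IL-17A. These markers were not uniform. With both factors 3 of the 9 were above untreated cells (Dcn at 0.54, Lum at 0.37 and Vim at 0.34). The others were below, 4 of them at least 2-fold. Tnc, also made by mesenchymal cells, had log2 ratios of 0.41 with both factors, 0.43 with FGF2 and 0.08 with IL-17A. The last of these was 0.81 SDs of the yardstick. Which cells these signals came from was not tested.

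**Figure D4:**
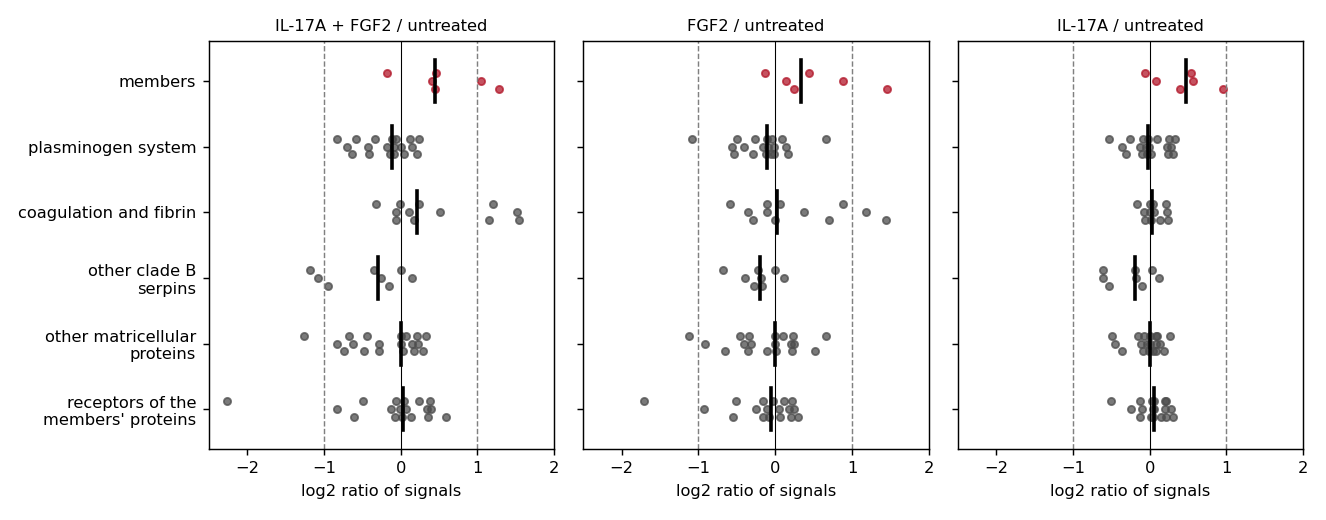
Log2 ratios against untreated cells of the 6 members (red) and of the measured genes of 5 lists (grey), with both factors (left), FGF2 (middle) and IL-17A (right); each point is a gene, black bars are medians and dashed lines mark 2-fold. The members' medians are 0.45, 0.34 and 0.47, those of the other clade B serpins −0.30, −0.20 and −0.19.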

How the data were processed

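RNA from 4 groups of cells, 1 array each, was labelled with a 3′ kit, per the labels' protocols. The authors deposited 1 log2 value per probe set and array, made with MAS5, per the submitters' processing notes; its version is not given in the sources used here. On the linear scale the trimmed mean (2% cut at each end) was 500.003 on each array. Of 45101 probe sets, 64 controls were left out. The platform annotation gave 1 symbol to 34945, several to 932 and none to 9160, and only the first kind was used.

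The probe set with the highest mean stood for its gene. Signals were raised to a floor at the median (log2 6.49). Log2 ratios were counted at 2-fold, with no test. The number of arrays limits the precision. The yardstick SD of a log2 ratio is that of the joint term divided by the square root of 2. The named list genes are those at least 2-fold different in a comparison, with no other probe set going the other way. Members and lists were chosen with earlier results of these data known. Alternatives were other floors, scalings, probe set rules and fold thresholds. Python 3.11.15, numpy 2.4.6, pandas 2.3.3 and scipy 1.17.1 were used, and the calculation was tested on simulated data.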

Additional observations from a re-analysis of the deposited data

Results flagged for a closer look

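The log2 ratio of Plau for IL-17A was −0.42 with FGF2 present and 0.95 with it absent, opposite directions that differ by −1.37. The difference was not tested, since each reading is 1 pair of arrays, and in the dimmer probe set of Plau the readings without a floor were −0.12 and 0.09.

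For Thbs1 the log2 ratio for FGF2 was −0.12 with IL-17A present and 0.14 with it absent, a difference of −0.26 that was likewise not tested. The second probe set had the same directions, −0.53 and 0.27.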

How the results depend on the processing

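Of 200 member log2 ratios recomputed under 7 alternatives, 185 moved by less than the yardstick SD, and 1 changed sign (Thbs1 for IL-17A against untreated, 0.10 when its probe sets were averaged, −0.06 in the report). Part of this count was fixed by the settings. The floor at the 25th percentile could not move the ratios, since all members were over the main floor on all arrays. At the 75th percentile Plau and Serpinb2 had no ratios to count, and the ratios of the other members did not move. With the floor at the 75th percentile of signals neither Plau nor Serpinb2 was over it on any array, and 0 members were at least 2-fold different with FGF2 or with both factors against untreated cells. With the floor added to the signal both counts were 0 as well, where Plau had log2 ratios of 0.98 with FGF2 and 0.66 with both factors, and Serpinb2 0.97 with both. With the mean of all probe sets 1 member was at least 2-fold different with both factors. The joint term of Plau, the 1 member past 2-fold, was −0.92 with the added floor and −0.79 when probe sets were averaged, so that 0 members were past it, as with the floor at the 75th percentile. A threshold of 1.5-fold gave 1 member with IL-17A and 2 with FGF2 against untreated cells, 1 for both factors against IL-17A and 1 against FGF2, and a threshold of 3-fold 0 for FGF2 and 0 for both factors against untreated. With the floor at the 75th percentile 5 list genes, in place of 8, were at least 2-fold different with both factors. The share of all measured genes at least 2-fold different with both factors was 5.54% with the floor at the 25th percentile and 1.52% at the 75th, against 2.64%. No paired analysis was possible because each group has 1 array, and for the same reason no array could be left out. Signals near the floor limit Plau most.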
